A study of Mus musculus with 4 samples.

Results

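The strongest decile of reproducible CTCF peaks comprised 4345 of the 43448 autosomal peaks in the conservative list of CTCF binding sites from mouse left cerebral cortex. They were chosen by signal alone. Peaks were ranked by the signal value that the authors deposited for each, and the top 10% was set against the other 39103. The whole list, with the sex chromosomes, held 44672 peaks. It came from chromatin immunoprecipitation sequencing (ChIP-seq), in which DNA bound by a protein is pulled down with an antibody and sequenced. The tissue came from female B6CASTF1/J mice aged 2 months, an F1 hybrid of the C57BL/6J and CAST/EiJ strains. All 4 libraries were made with a CTCF antibody from frozen tissue of such mice, so no treated or mutant group exists and all contrasts here are between peaks. Each of the 2 pools, named I and J, combined 4 biosamples and gave 2 libraries as technical replicates. Both libraries of a pool entered the deposited lists together, so a peak has 1 value per pool, and animals within a pool cannot be separated. Cortex holds many cell types, and a signal cannot be assigned to any of them. The lists carry no read counts, so depth is unknown. Intervals of shares below are 95% exact binomial (Clopper-Pearson) intervals. Those of medians are read from the ranked values, and those of differences combine the limits of both values compared. All of them cover the counting of peaks only.

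CTCF is a zinc finger protein that binds a long motif with a definite direction. Cohesin, the ring complex that extrudes chromatin loops, halts at bound CTCF, most often where the motif points into the loop. Loop anchors therefore tend to carry motifs that face each other, called convergent. CTCF also sits at the edges of chromatin domains, at insulators of imprinted genes and at the promoters that neurons choose among in the clustered protocadherins. Methylation of a CpG inside its motif can block binding. In mouse, copies of short interspersed repeats, the B2 family above all, carry CTCF motifs and have spread them through the genome.

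The 10 strongest peaks that hold a motif match are shown first, since they are the top of the ranking. Peaks of 1 chromosome are not printed as sequence. Each line gives the 20 bp match in capitals with 20 bp on each side in lower case, in motif direction, from the GRCm38 (mm10) reference, which is the C57BL/6J sequence. The CAST/EiJ allele may differ.
Rank 1, nearest Eif4b, chr15:102065818-102065837, minus strand: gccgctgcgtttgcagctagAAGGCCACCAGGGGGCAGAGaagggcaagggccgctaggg
Rank 2, nearest Epm2aip1, chr9:111290015-111290034, minus strand: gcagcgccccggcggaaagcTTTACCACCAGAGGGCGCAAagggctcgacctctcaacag
Rank 3, nearest Ier5, chr1:155006711-155006730, minus strand: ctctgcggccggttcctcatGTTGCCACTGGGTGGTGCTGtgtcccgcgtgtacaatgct
Rank 4, nearest Ddr1, chr17:35725774-35725793, minus strand: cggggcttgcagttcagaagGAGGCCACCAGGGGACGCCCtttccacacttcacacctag
Rank 7, nearest Atp23, chr10:126919293-126919312, plus strand: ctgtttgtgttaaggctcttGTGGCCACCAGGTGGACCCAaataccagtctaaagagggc
Rank 9, nearest Chrm3, chr13:9847004-9847023, minus strand: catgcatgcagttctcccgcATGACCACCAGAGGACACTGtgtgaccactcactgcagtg
Rank 10, nearest Ptges2, chr2:32404911-32404930, minus strand: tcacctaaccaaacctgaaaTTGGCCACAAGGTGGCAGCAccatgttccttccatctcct
Rank 11, nearest Bcl11a, chr11:24049390-24049409, plus strand: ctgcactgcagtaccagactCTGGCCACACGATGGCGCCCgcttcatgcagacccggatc
Rank 12, nearest Cul5, chr9:53667570-53667589, minus strand: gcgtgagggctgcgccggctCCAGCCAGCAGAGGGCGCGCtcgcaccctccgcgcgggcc
Rank 13, nearest Armc9, chr1:86179051-86179070, plus strand: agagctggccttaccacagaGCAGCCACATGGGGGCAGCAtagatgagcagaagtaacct
The core of the CTCF motif is written here as CCANNAGNNGGC, in which N is any base. All of its fixed letters stood in 4 of these 10 sites, at ranks 1, 2, 10 and 12, and the other sites departed from it by at least 1 letter.

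The 10 highest-ranked peaks, whether or not they held a motif, had signals from 722.37 to 750.82 and widths from 423 to 528 bp. The first, chr15:102065632-102066099, lay 7914 bp upstream of the start of Eif4b, a translation initiation factor. Its signal was 750.82, with 419.5 in pool I and 332.1 in pool J. The next, chr9:111289808-111290267, lay 18110 bp from Epm2aip1 with a signal of 742.77, and the one after it lay 92878 bp from Ier5, an immediate early response gene, with 739.23. Among the others, the nearest genes included Ddr1 (a collagen receptor kinase), Psmd6 (a proteasome subunit), Atp23, Cep120 (a centriole protein), Chrm3 (a muscarinic acetylcholine receptor) and Ptges2. Their distances to the nearest protein-coding transcription start site (TSS) ranged from 120 bp at Cep120 to 92878 bp. Of these 10, 6 were intergenic and 2 were at promoters of protein-coding or lncRNA genes, and 0 had a summit in a repeat. The motif was matched in 8 of them, and 4 held a second match.

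At the cut, the values ran on without a gap. The last 3 inside had signals of 548.51, 548.47 and 548.47, and the first 3 outside had 548.45, 548.44 and 548.43. The last inside, chr3:51701285-51701675, lay in an intron of Maml3, and the first outside, chr8:60466962-60467335, lay 38797 bp upstream of Aadat. Their motif matches are printed so that sequences on both sides of the cut can be set side by side, and 0 of the 3 inside and 0 of the 3 outside held all the fixed core letters.
Rank 4343, nearest Klc2, chr19:5117584-5117603, plus strand: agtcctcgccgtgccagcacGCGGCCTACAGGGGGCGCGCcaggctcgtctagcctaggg
Rank 4344, nearest BC024139, chr15:76156114-76156133, minus strand: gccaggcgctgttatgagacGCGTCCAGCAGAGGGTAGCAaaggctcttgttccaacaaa
Rank 4345, nearest Mgst2, chr3:51701469-51701488, plus strand: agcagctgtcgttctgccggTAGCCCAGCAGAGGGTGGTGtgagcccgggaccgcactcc
Rank 4346, nearest Aadat, chr8:60467127-60467146, minus strand: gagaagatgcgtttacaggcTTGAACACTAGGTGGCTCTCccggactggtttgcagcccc
Rank 4347, nearest Slc25a25, chr2:32488867-32488886, plus strand: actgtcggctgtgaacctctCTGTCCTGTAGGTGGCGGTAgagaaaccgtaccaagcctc
Rank 4348, nearest Ptgir, chr7:16913958-16913977, minus strand: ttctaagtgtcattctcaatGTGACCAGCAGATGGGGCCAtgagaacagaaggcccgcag

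By the rule, the members differed from the other peaks in signal and in the measures that come from the same reads, which are therefore given as description. Signal had a median of 588.82 in the strongest decile, with quartiles of 566.45 and 616.77. In all other peaks it had a median of 237.22 and reached down to 9.12. The members were also wide, with a median of 403 bp, against 295 bp in the other peaks. Pool I signals ranged from 296.7 to 419.5 with a median of 358.1 in members, and had a median of 166.6 in the other peaks. Pool J signals of members ranged from 182.4 to 332.1 with a median of 235.0, and had a median of 71.5 in the other peaks. The log2 ratio of pool I over pool J had a median of 0.60 in members and 1.14 in the other peaks, and it was above 0 in every member, the lowest being 0.21.

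The pool signals come from the reads that chose the members, so their ranks are given as description. Ranked by pool I signal alone, 3778 of the 4345 members (87.0%) were in the top 10%, and by pool J signal alone 3868 were (89.0%). Both rankings held 3313 of them, 76.2%. The top 20% held 4340 members by pool I and all 4345 by pool J.

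The highest signal did not go with the lowest irreproducible discovery rate (IDR), the estimated share of peaks that would not replicate. The deposited score is a scaled IDR that stops at 1000. Among the first 100 members, 51 had a score under 1000, and the 10 strongest had scores from 569 to 839. Over all members the number was 219 (5.04%), against 2422 of the other peaks (6.19%). In the ranked list of both pools before the IDR threshold, 4593 autosomal peaks had a signal at or above that of the lowest member, and 248 of them (5.40%) were absent from the conservative list. The members had a median signal of 588.8, against 686.3 in those absent peaks, and a median log2 ratio of pool I over pool J of 0.60, against 0.40 in those absent peaks. The strongest decile is thus the top of the reproducible list and not the top of all ranked peaks.

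Members lay in repeats far less often than the rest. The summit was in a masked repeat in 211 members, or 4.86% (interval 4.24 to 5.54%), and in 8473 of the other peaks, or 21.7% (interval 21.3 to 22.1%). Over all autosomal peaks the share was 20%, and 33.5% of the autosomal genome was masked. The share was 4.86% in the strongest decile and 4.95% in the second, and each later decile was higher than the one before, up to 37.4% in the weakest. It was lower in members on 19 of 19 autosomes, by 13.3 to 21.1 percentage points. Masking marks repeats without naming their family, so families were not counted.

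**Figure D1:**
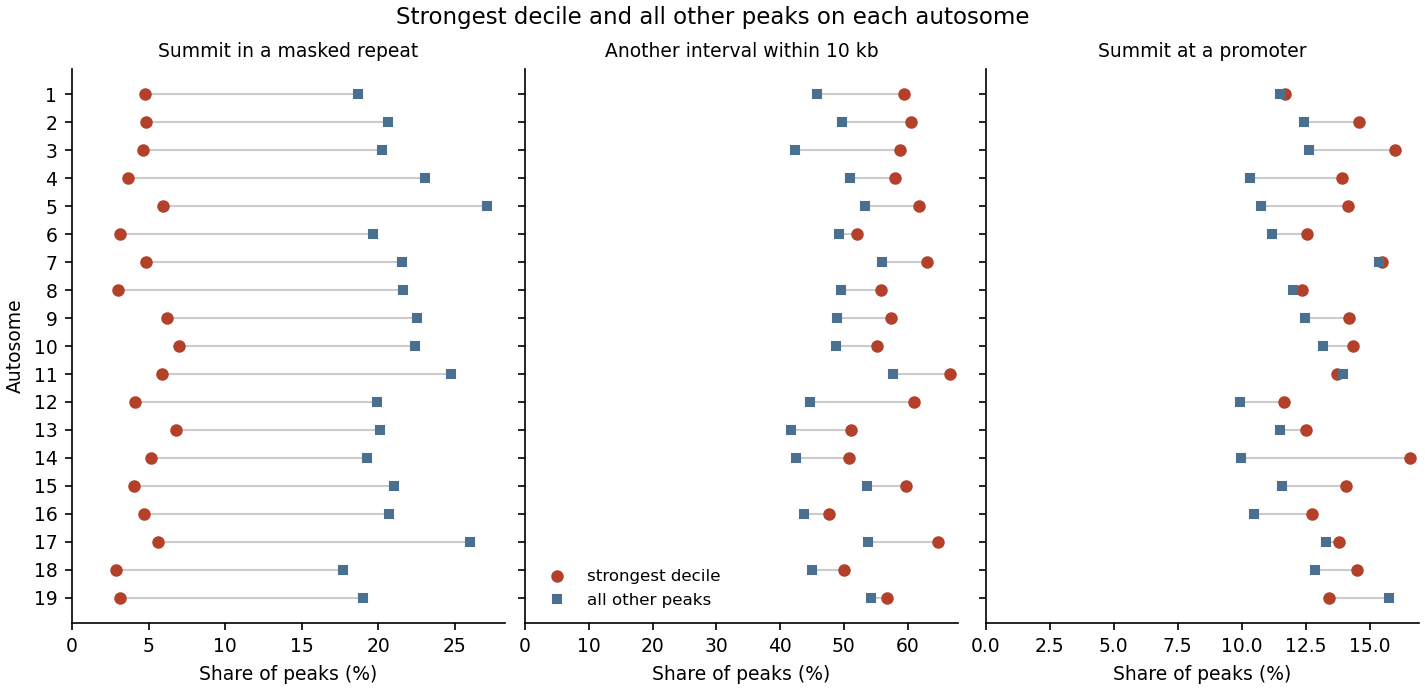
Each row is 1 autosome, and the axes give the share of peaks in percent, with circles for the strongest decile and squares for all other peaks. Repeat summits were fewer in the strongest decile on 19 of 19 autosomes and near neighbours more frequent on 19 of 19, while the promoter share was higher on 17 and lower on 2.

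The 5 strongest members in repeats had signals from 664.9 to 697.4. They lay nearest to Krt78, Map3k9, Dusp13, Wbp1l and Ago2, among which Krt78 encodes a keratin, Map3k9 a kinase, Dusp13 a phosphatase and Ago2 an Argonaute protein. A motif was matched in 3 of them. These matches are shown because they come from inside masked sequence.
Rank 110, nearest Dusp13, chr14:21742007-21742026, minus strand: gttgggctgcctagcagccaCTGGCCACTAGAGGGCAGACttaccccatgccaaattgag
Rank 159, nearest Wbp1l, chr19:46588040-46588059, plus strand: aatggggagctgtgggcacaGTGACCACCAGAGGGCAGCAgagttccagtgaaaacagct
Rank 188, nearest Ago2, chr15:73187013-73187032, minus strand: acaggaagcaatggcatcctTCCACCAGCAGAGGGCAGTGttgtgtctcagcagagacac
All 3 have the core letters with AGAGGGC at the 3′ end, the ending that also dominates repeats lower in the list.

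The spelling of the core differed between the members and repeat copies. A core with all 8 fixed letters lay within 50 bp of the summit in 46.0% of members (2000 of 4345, interval 44.5 to 47.5%) and in 37.6% of the other peaks (14716 of 39103, interval 37.2 to 38.1%). Over all peaks it was 38.5%, against 0.893% of windows 1000 bp away. In the second decile it was 44.4% (interval 43.0 to 45.9%). Outside repeats the shares were 44.6% in members and 28.0% in the other peaks. The spellings were counted without the chromosome whose sequence is not printed. The most frequent spelling in members was CCACCAGGGGGC, in 172 of 1933 members with a core (8.90%), against 5.31% of other peaks with a core outside repeats and 0.268% of those in repeats. Next came CCAGCAGAGGGC in 7.45% of members, against 6.32% and 5.49%, and CCACTAGGTGGC in 7.24%, against 4.51% and 0.251%. The spelling CCAGAAGAGGGC was in 52 members (2.69%), of which 44 lay in repeats. It was in 32.7% of the other peaks with a core, and 92.9% of those lay in repeats, where it made up 72.8% of all cores.

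The motif learned from the other peaks was close to that spelling. A matrix of base frequencies over 20 bp was learned from the other peaks on odd-numbered autosomes and then searched for on even-numbered ones, with the score that 1% of windows 1000 bp away passed as threshold. Its consensus was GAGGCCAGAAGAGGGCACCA, the repeat spelling. It was matched within 50 bp of the summit in 63.4% of members (1235 of 1948, interval 61.2 to 65.5%) and in 50.4% of the other peaks (8919 of 17689, interval 49.7 to 51.2%), with 51.7% over all peaks. A second matrix, chosen after the data were seen, was learned only from other peaks outside repeats and had the consensus GTGGCCACCAGGGGGCACTA. It was matched in 90.4% of members (1761 of 1948, interval 89.0 to 91.7%) and in 75.2% of the other peaks (13303 of 17689, interval 74.6 to 75.8%), with 76.7% over all peaks. The share was higher in members on 9 of 9 even autosomes, by 12.3 to 17.6 points. In the second decile it was 89.0% (interval 87.6 to 90.4%, overlapping that of the strongest), and in the weakest 61.6%. Outside repeats, 90.2% of members and 71.0% of the other peaks held a match. In repeats it was 95.2% of 84 members, with an interval of 88.3 to 98.7%, and 91.1% of 3677 other peaks, so there the intervals overlapped. The results below use this matrix unless the other is named.

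The matched sites scored higher in members too. On even autosomes outside repeats, the median score was 18.8 in members (interval of the median 18.6 to 19.1) and 17.2 in the other peaks (17.2 to 17.3), as the summed log2 odds of the site against base composition. The middle of the match lay a median of 5.5 bp from the summit in members and 6.5 bp in the other peaks. Around the match, the bases 5′ of it were also more uniform. Over all autosomes the 30 bases 5′ of the match held 1.83 bits of information in 3925 members and 0.703 bits in 21677 other peaks outside repeats. The members here and in the base counts below include those in repeats. The 20 bp match itself held 18.5 bits in members and 16.8 bits in those other peaks, and the 30 bases after it 1.17 and 0.514 bits.

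**Figure D2:**
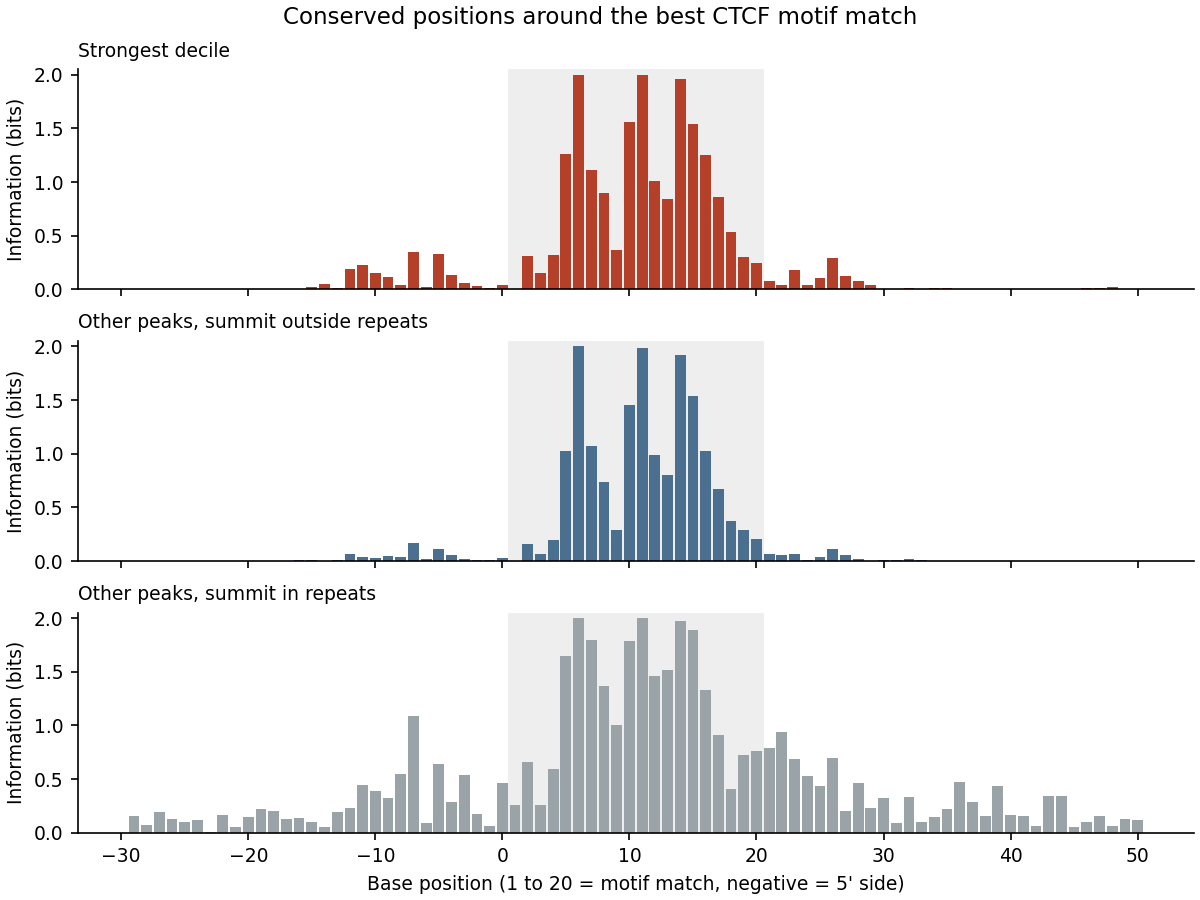
Bars give the information content in bits at each base, counted from 1 at the first base of the match, for the strongest decile, for other peaks outside repeats and for other peaks in repeats. Beside the shaded match, members show their tallest bars at positions -12 to -9, -7, -5, -4, 23 and 25 to 27. Other peaks in repeats show raised bars over the whole stretch.

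The base counts name these flanking positions, with the base before the match numbered 0. At position -7, T was found in 57.1% of members and in 46.6% of other peaks outside repeats. At position -5, C was found in 55.6% of members and 40.8% of those other peaks, and at -11, G in 46.8% and 34.8%. At position 26, on the 3′ side, C was found in 52.9% of members and 41.2% of those other peaks. CTCF is known to touch such flanking elements with its outer zinc fingers.

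A score for the 30 bases 5′ of the match counted an upstream element as present when it was above 0. It was present in 80.7% of members with a match on even autosomes (1421 of 1761, interval 78.8 to 82.5%) and in 69.6% of such other peaks (9254 of 13303, interval 68.8 to 70.3%), with 70.9% over all. Outside repeats the shares were 80.1% in members and 62.9% in the other peaks. With the matrix from all other peaks the contrast was not seen, at 58.1% in members and 60.1% in the other peaks, with 59.8% over all, and the intervals overlapped. The share was not lowest in the weakest decile. It was 80.7% in the strongest, 74.0% in the second, 65.1% in the middle of the ranking, at decile 5, and 73.8% in the weakest. In the weakest decile 37.4% of summits were in repeats, and their part in this share was not tested.

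A CpG inside the 20 bp match was more frequent in members. It was found in 53.2% of them (2089 of 3925, interval 51.6 to 54.8%) and in 10593 of 29446 other peaks with a match (interval 35.4 to 36.5%), with 38% over all. Outside repeats the shares were 54.7% in members and 38.7% in the other peaks. The main site was the CpG over bases 16 and 17, at the 3′ end of the core. It was in 41.6% of members, those in repeats included, and in 29.3% of other peaks outside repeats. The next was that over bases 6 and 7, in 9.68% of the same members and 4.90% of those other peaks. Methylation was not measured here.

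The base composition around the summit moved the same way. The GC content of the summit and 100 bp on each side had a median of 51.7% in members and 47.8% in the other peaks, and its median was higher in members on 19 of 19 autosomes, by 2.49 to 5.97 points. A CpG-rich window, with over 50% GC and a CpG ratio of observed to expected above 0.6, was found in 14.0% of members (609 of 4345) and in 7.94% of the other peaks (3103 of 39103), with 8.54% over all. The share was 14.0% in the strongest decile, 7.57% in the second and between 6.77% and 8.82% in all below. Away from promoters it was 6.87% in members and 2.41% in the other peaks. GC content bears on how DNA is amplified and sequenced, and its part in the signal was not tested.

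**Figure D3:**
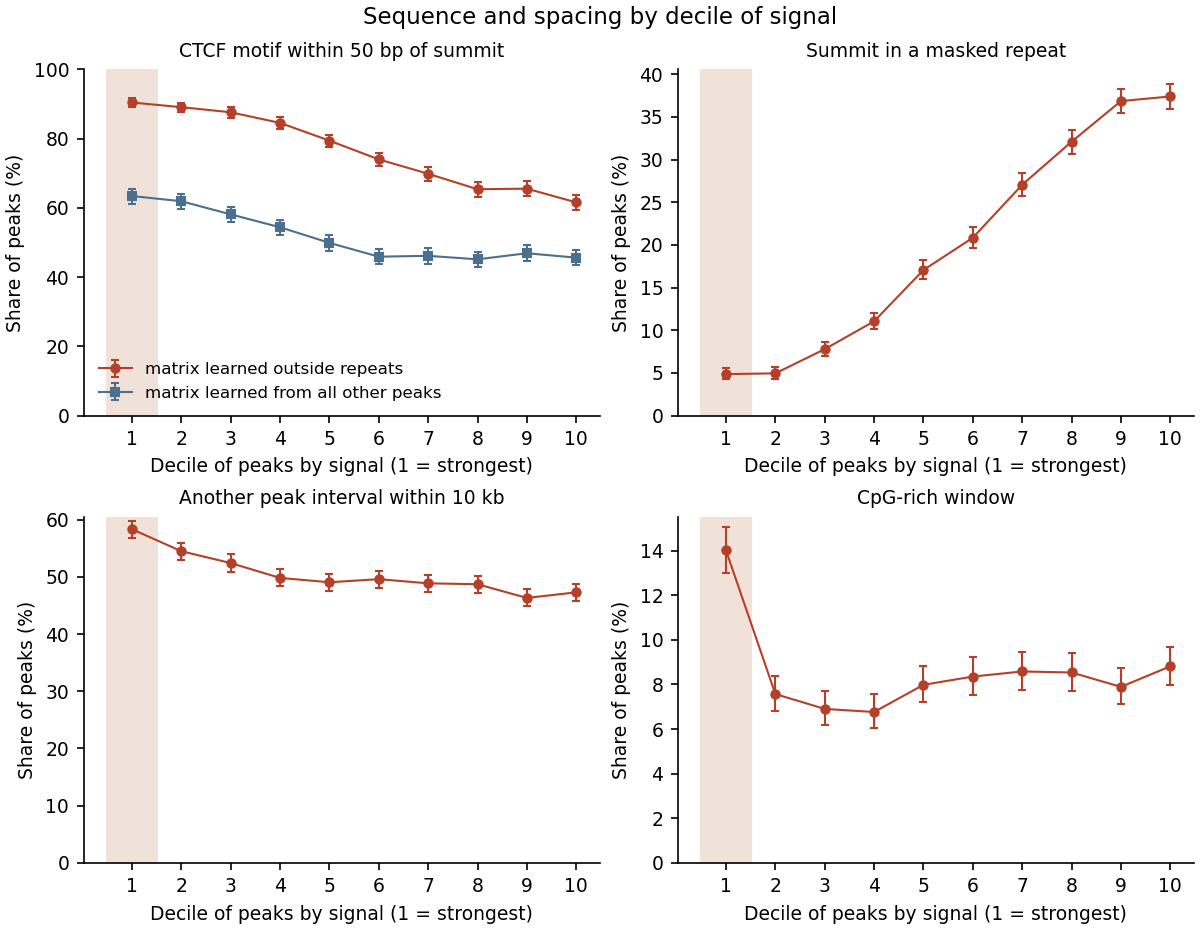
Each panel gives a share of peaks in percent for the 10 deciles of the ranking, the strongest decile shaded and first, with exact 95% intervals as bars. With the matrix learned outside repeats the motif share is 90.4% in the strongest decile, 89.0% in the second and lowest in the weakest. Repeats stand at 4.86% in the strongest decile and 37.4% in the weakest. The CpG-rich share is 14.0% in the strongest decile and at most 8.82% in any other.

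A second motif match within 150 bp of the summit was found in 5.58% of members with a match (219 of 3925, interval 4.88 to 6.34%) and in 2.84% of such other peaks (836 of 29446, interval 2.65 to 3.04%), with 3.16% over all. The share was 5.58% in the strongest decile and 3.02% in the second, and between 2.47% and 3.36% below it. With the matrix from all other peaks it was 2.45% in members and 1.12% in the other peaks, with 1.29% over all. In members the pair of motifs was on the same strand in 63.9% (140 of 219, interval 57.2 to 70.3%), against 49.6% in the other peaks (415 of 836, interval 46.2 to 53.1%). The median distance between the starts of such same-strand motifs was 59 bp in members and 77 bp in the other peaks.

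The promoter share differed little between members and the other peaks, and the difference depended on which signal ranked them. In this paragraph a TSS is that of a protein-coding or lncRNA gene. The summit was within 1000 bp of a TSS in 13.9% of members (602 of 4345, interval 12.8 to 14.9%) and in 12.2% of the other peaks (4758 of 39103, interval 11.8 to 12.5%), with 12.3% over all. With protein-coding genes alone the shares were 11.7% in members and 10.6% in the other peaks. Outside repeats the shares were 14.3% in members and 14.2% in the other peaks, so this contrast was not seen there. Ranked by pool I signal alone, the promoter share was 12.6% in the strongest decile and 12.3% in the other peaks, a difference of 0.332 points (interval -0.697 to 1.41). By pool J signal alone it was 14.9% and 12.1%, a difference of 2.86 points (interval 1.77 to 4.00). Nor did the share follow the ranking: it was 10.8% in the second decile and 13.6% in the weakest. Intergenic summits were 40.5% of members and 37.0% of the other peaks, and intronic ones 40.0% of members and 46.3% of the other peaks. A TSS lay over 50 kb away for 13.5% of members and 20.1% of the other peaks, and the median distance was 12072 bp in members and 14980 bp in the other peaks.

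**Figure D4:**
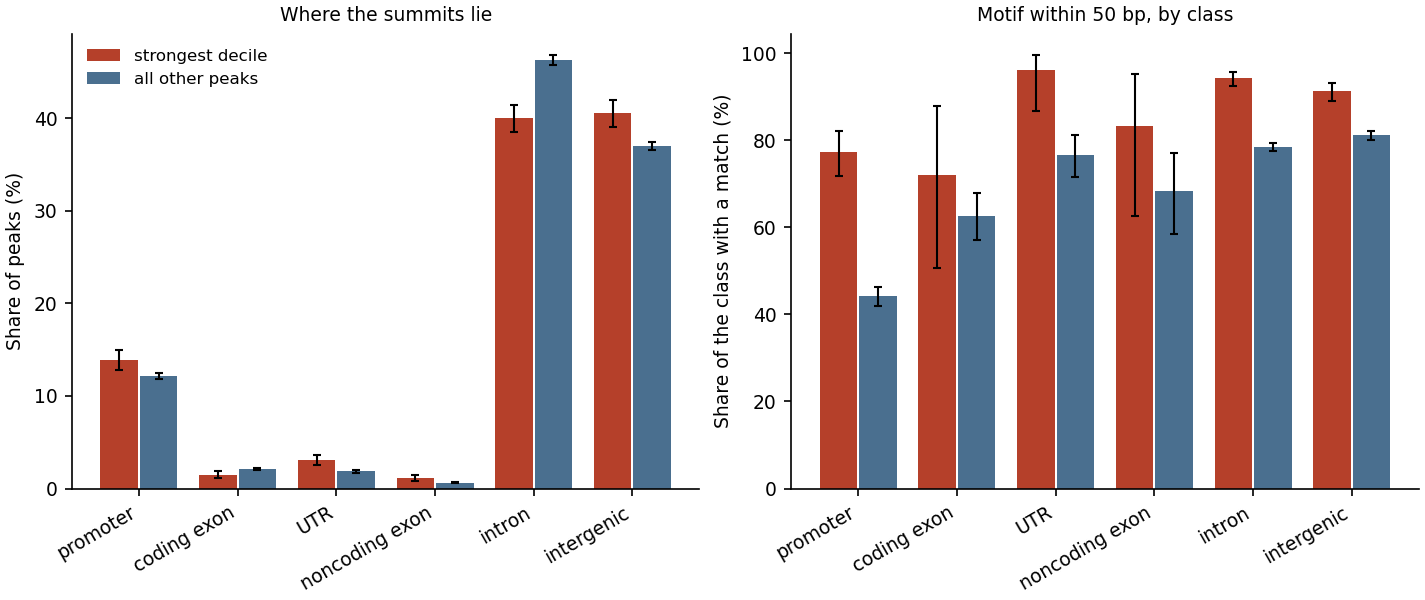
The left panel gives the share of peaks in each annotation class in percent, and the right panel the share of each class with a motif match on even autosomes, with exact 95% intervals as bars. At promoters 77.2% of the strongest decile held a match, against 44.2% of all other peaks.

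The motif contrast was large at promoters. A match was found in 77.2% of promoter members (207 of 268, interval 71.7 to 82.1%) and in 44.2% of other promoter peaks (893 of 2022, interval 42.0 to 46.4%). In introns it was 94.3% of members and 78.6% of the other peaks, and in intergenic sequence 91.3% and 81.1%. Of all 420 members without a match, 125 (29.8%) were at promoters, against 13.9% of all members. This was not particular to members. In the other peaks, too, a match was rarer at promoters, at 44.2%, than over all classes, at 75.2%, on even autosomes. Of the 5 strongest members with no match by either matrix, 4 were at promoters, counting those of lncRNA genes. The 5 included peaks 22214 bp from Psmd6, in an intron of Atxn7, 64161 bp from Epcam and 897 bp from Spata20. The Psmd6 promoter named below holds another peak. By the matrix from all other peaks, the 5 strongest without a match included those nearest to Ier5, Psmd6, Cep170b and AI413582.

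Among the promoters of protein-coding genes named here, that of Cep120 had the strongest member, with a signal of 723.27, 120 bp from the TSS. Cul5, a scaffold of ubiquitin ligases, followed with 721.04 at 77 bp. The next included AI413582, Nob1 (a ribosome assembly factor), Dusp23 (a phosphatase), Spata20, Adprhl2, Ocel1, Psmd6, Car7 (a carbonic anhydrase), Nae1 (an enzyme of neddylation), Prmt3 (an arginine methyltransferase), Mapk1ip1l and Atxn7l1. A single peak served both Car7 and Nae1, at 31 and 32 bp. Of the 15 genes, 12 had the summit within 150 bp of the TSS and 14 had a CpG-rich window. Dusp23 was the exception, with a GC content of 50.2% but a CpG ratio of observed to expected of 0.401. Among promoter peaks of protein-coding or lncRNA genes, the window was CpG-rich in 58.5% of members and 47.8% of other peaks, with 49.0% over all. No like share within 150 bp of a TSS is given. The motif was matched at 11 of the 15 genes, and those without a match included Spata20, Mapk1ip1l and Atxn7l1. In all, 535 protein-coding genes had a member at a promoter, 2.57% of 20807, and 4461 had any peak of the list there.

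Members had close neighbours more often. Another peak interval lay within 10 kb of 58.3% of members (2534 of 4345, interval 56.8 to 59.8%) and of 49.6% of the other peaks (19398 of 39103, interval 49.1 to 50.1%), with 50.5% over all. The median distance was 7659 bp for members and 10158 bp for the other peaks. The share was higher in members on 19 of 19 autosomes, by 2.44 to 16.5 points, and it was 58.3% in the strongest decile, 54.5% in the second and 47.3% in the weakest. Another member lay within 10 kb of 531 members (12.2%), and the median distance to the nearest other member was 91304 bp. No like value was computed for the other peaks, so these are a description.

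Members were spread over all autosomes, at 1.24 per Mb on chromosome 3 and 3.01 per Mb on chromosome 11. All peaks of the list were likewise sparsest on chromosome 3, at 13.8 per Mb, and densest on chromosome 11, at 27.0 per Mb. They made up 8.41% of the peaks on chromosome 12, the lowest share, and 11.3% on chromosome 7, the highest. Of 4935 windows of 500 kb, 2806 (56.9%) held no member, and no like share is given for the other peaks. The fullest windows were sought separately, among windows of the same width taken in steps of 250 kb. The fullest of these held 12 members, and 2 such windows are listed here. The first was chr7:19000001-19500000, with 56 peaks in all, around Opa3, Vasp and Ppm1n. The second was chr17:45250001-45750000, with 35 peaks, around Aars2, Tcte1 and Spats1. Next came chr3:89000001-89500000 around Krtcap2, Trim46 and Dpm3, with 11 members among 33 peaks. In chr4:133000001-133500000, around Map3k6, Sytl1 and Tmem222, there were 10 among 30. In chr11:101750001-102250000, around Cfap97d1, Dusp3 and Mpp3, there were 10 among 32.

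The direction of the motif was compared between neighbouring peaks that both held a match. Neighbours were taken after peaks without a match were left out, so such peaks can lie between them. Convergent motifs point at each other, and divergent ones point apart. Over distances of 10 kb to 1 Mb, 28.2% of the 362 pairs of members were convergent (interval 23.6 to 33.1%), against 25.4% of 19372 pairs without a member and 25.7% of all pairs. With the matrix from all other peaks the shares were 27.1% of 280 and 25.3% of 13750, with 25.9% over all. The intervals for convergent pairs overlapped with both matrices. With the matrix learned outside repeats and neighbours taken among peaks outside repeats alone, convergent pairs were 29.96% of 474 pairs of members and 25.5% of pairs without a member, a difference of 4.44 points (interval 0.281 to 8.84). Divergent pairs over the same range, with all peaks and that matrix, were 33.4% of pairs of members (interval 28.6 to 38.5%) and 22.5% of pairs without a member (interval 21.9 to 23.1%). Pairs on the same strand were 38.4% of pairs of members (interval 33.4 to 43.6%) and 52.2% of pairs without a member (interval 51.5 to 52.9%).

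Split by distance, the orientations differed. Under 10 kb, 6.01% of 183 pairs of members were convergent (interval 3.04 to 10.5%), against 14.5% of pairs with 1 member, 19.5% of 6436 pairs without a member and 18% of all pairs. At 10 to 50 kb, 43.8% of 224 pairs of members were divergent (interval 37.2 to 50.5%), against 28.0% with 1 member, 26.2% of 10161 pairs without (interval 25.3 to 27.0%) and 26.8% of all. At 50 to 200 kb, 42.5% of 120 pairs of members were convergent (interval 33.5 to 51.9%), against 34.5% with 1 member, 28.3% of 7164 without (interval 27.2 to 29.3%) and 29.6% of all. At 200 kb to 1 Mb it was 61.1% of 18 pairs of members (interval 35.7 to 82.7%), against 45.3% with 1 member, 34.1% of 2047 without and 35.7% of all. In each of these 4 classes, pairs with 1 member lay between the others. With the matrix from all other peaks, 7.48% of 107 pairs of members under 10 kb were convergent, against 19.3% without a member, and 41.1% of 141 at 10 to 50 kb were divergent, against 26.5%. At 50 to 200 kb, that matrix gave 33.9% convergent in 121 pairs of members, with an interval of 25.5 to 43.0% that held the 27.9% of pairs without a member. A peak can stand in more than 1 pair, so pairs are not independent of each other. The distance classes were chosen after the data were seen, and loops were not measured here.

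**Figure D5:**
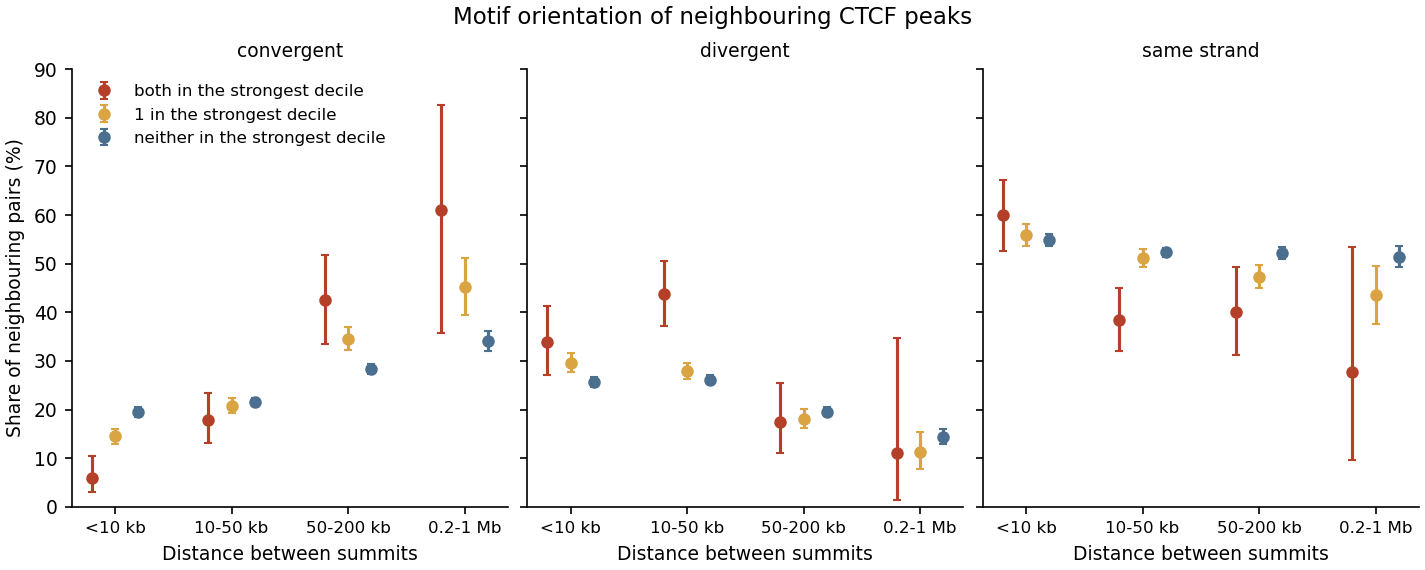
Points give the share of neighbouring pairs in percent by motif orientation and distance between summits, with exact 95% intervals, for pairs with both, 1 or neither peak in the strongest decile. Neighbours were taken among peaks with a match alone. Convergent pairs of members are 6.01% under 10 kb and 42.5% at 50 to 200 kb, against 19.5% and 28.3% of pairs without a member.

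Genes were counted as holding a member if a summit lay in the gene or 10 kb upstream. This was so for 2842 of 20807 protein-coding genes, 13.7%, and members were 9.75% of the peaks there. Gene length was not accounted for, so the share of the peaks that were members is given beside the counts, and no test was made. Oligodendrocyte lineage markers held members in 6 of 13 genes, and 7 of their 29 peaks were members (24.1%). Among them were Opalin, a membrane protein of oligodendrocytes, with a signal of 700.1, Mbp, myelin basic protein, with 652.5, and Myrf, the transcription factor of myelination, with 623.9. Imprinted genes held members in 10 of 45 genes, and 15 of 88 peaks (17.0%). Their strongest were in Inpp5f at 690.1, in H13 at 678.3 and in Kcnk9, a potassium channel, at 673.2.

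Ribosomal protein genes held members in 16 of 78 genes, and 16 of 94 peaks (17.0%), among them Rps3a1 at 683.7 and Rps21 at 666.7. Synaptic adhesion and scaffold genes held them in 9 of 25 genes, but members were 11 of 186 peaks (5.91%). The strongest were in introns of Lrrtm3, a postsynaptic adhesion protein, at 689.9, of Shank3, a postsynaptic scaffold, at 673.0 and of Nrxn2, a neurexin, at 629.0. Excitatory neuron markers held members in 3 of 16 genes, namely Cux2 at 628.1, Camk2a at 613.9 and Cux1 at 596.0, and members were 5 of their 51 peaks (9.80%), near the 9.75% over all protein-coding genes. Inhibitory neuron markers held members in 1 of 15 genes, Sst (somatostatin) at 563.5, and 1 of 22 peaks was a member (4.55%). Astrocyte markers held them in 2 of 12 genes, Aldh1l1 at 614.7 and Sox9 at 555.6, and 2 of 20 peaks were members. Microglia markers held them in 1 of 12 genes, Spi1 at 617.5, and 2 of 19 peaks were members (10.5%).

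CTCF and cohesin genes held members in 2 of 19 genes, at the promoters of Stag1, a cohesin subunit, at 660.8 and of Esco1, a cohesin acetyltransferase, at 623.5, and 2 of their 35 peaks were members (5.71%). Neuronal immediate early genes held them in 2 of 20, Egr1 at 569.9 and Fosb at 549.1, and 3 of 35 peaks were members (8.57%). The Hox clusters held 2 members among 21 peaks. The first, at 666.0, lay in Hoxa7 and within 10 kb upstream of Hoxa3, and the second, at 558.8, lay upstream of Hoxd3. In the clustered protocadherins 12 of 56 genes counted as holding a member, but it was 1 and the same peak of 49, within the overlapping alpha genes such as Pcdha1, Pcdha11 and Pcdha12. Its signal was 617.5 and no motif was matched there. It lay at the promoter of Pcdhac1, a gene outside the naming rule, looked up after the peak was seen. Olfactory receptors held members in 3 of 1086 genes, and 2 of 61 peaks were members (3.28%), the strongest near Olfr94 at 672.6 and the other at 604.0, shared by Olfr12 and Olfr1410.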

How the data were processed

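CTCF ChIP-seq libraries of pool I and pool J were grouped by the pool named in the labels. The authors deposited peak lists on mm10 thresholded at an IDR of 0.05, and ranked lists before that threshold. The deposited signal has no stated unit. The deposited score is a scaled IDR from 540 to 1000, and the ranked lists deposited by the authors give the IDR as −log10. Depth is unknown. Not given in the sources used here were the aligner, the caller, their versions and the control. The conservative list and the signal per pool in the ranked list were used. The signal columns of the ranked list were assigned to pool I and pool J by intervals identical to ranked peaks of that pool. The closing section also used the optimal list and the thresholded list of each pool. The members, lists and tests here were chosen with earlier results of these data known.

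Each summit was placed on GRCm38.p6, whose lower-case letters mark repeats, and on 20807 protein-coding and 9426 lncRNA autosomal genes of GENCODE M21 (basic set). Classes were assigned in the order promoter, coding exon, UTR, noncoding exon, intron and intergenic. Motif matrices were learned in 3 rounds from sites with the core letters, on odd autosomes, and searched on both strands within 50 bp of the summit on even autosomes. Counts over all autosomes include the peaks used for learning. No test was made, as the members share libraries and sequence. Named genes were those nearest the 10 strongest peaks and the peaks at the cut, the first 15 with a member at a promoter, the first 5 without a motif and in repeats, the 3 nearest the middle of the 5 fullest windows, and the first 3 of each list, with clone symbols passed over. Some items that this rule names are not reported here. The motif search was checked on simulated windows with planted motifs. The work was done in Python 3.11.15 with pandas 2.3.3, SciPy 1.17.1 for intervals, numpy 2.4.6, and figures from matplotlib 3.10.9. Alternatives are given in the closing section.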

Additional observations from a re-analysis of the deposited data

How the results depend on the processing

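All values here are differences, strongest decile minus all other peaks, in percentage points unless shares are named. Motif, second motif, upstream element and convergent pair values here use the matrix learned from all other peaks, unless another is named. That matrix gave differences of 12.98, 1.33, -2.03 and 1.80, and the intervals of the upstream element and of convergent pairs hold 0. These values are not alternatives to those from the matrix learned outside repeats, for which the settings below were not run. Each alternative was compared with the 95% interval of the value from the fixed design. Of 82 alternative values 45 stayed within that interval and 36 moved out of it. A reversal here is a change of sign where both intervals exclude 0, and there was 1: with a threshold passed by 0.1% of flanking windows, the motif difference was -6.32. At that threshold the motif shares were low, 1.80% in the strongest decile and 8.12% in the other peaks. The same threshold gave an upstream element difference of -33.8 (interval -51.3 to -16.5), from 35 members with a match. The motif difference was 20.2 with a matrix from the strongest decile, 8.68 with the exact core letters and 19.2 over peaks outside repeats with the matrix learned there. Ranked by a single pool, the promoter difference ranged from 0.332 to 2.86. It was 3.15 with a 5000 bp window and 0.0780 outside repeats.

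With the strongest 5%, the differences were 9.99 for the motif, 4.07 for promoters, 4.98 for GC content, 2.61 for a second motif, 4.17 for the upstream element and -10.0 for convergent pairs. With the strongest 20% they were 9.16 for the motif, -0.0295 for promoters, 3.48 for GC content, -18.9 for repeats, 0.145 for a second motif and -17.1 for the upstream element. With an IDR of at most 0.01 the repeat difference was -15.8 and the upstream element difference 0.129. Signs also changed, with at least 1 interval holding 0, for convergent pairs at 5%, promoters at 20% and the upstream element at 5%, at this IDR and outside repeats. With the larger optimal list the repeat difference was -19.5, the motif difference was 9.19, the second motif 0.635 and the upstream element -15.1. GC content differed by 3.96 over 50 bp and 2.80 over 500 bp on each side of the summit. Near neighbours differed by 5.59 within 5 kb and 6.27 within 50 kb. Outside repeats, with the matrix learned there, the differences were 3.48 for GC content, 2.70 for a second motif and 17.3 for the upstream element. The cause of these changes was not tested.

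As the choice of members largely fixes, thresholded pool I peaks overlapped 99.93% of members by 1 bp and as many by 50% of both intervals, and pool J peaks 99.98% and 99.82%. The 0.1% threshold left no pair of members, so it gave no value for convergent pairs. No paired analysis was possible because the lists hold 1 value per pool and the comparison is between peaks.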
